A study of Mus musculus with 36 samples.

Results

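The genes described here are those for 7 proteins that modify and fold new collagen chains in the endoplasmic reticulum: the prolyl 4-hydroxylase subunits P4ha1, P4ha2 and P4hb, the lysyl hydroxylases Plod1, Plod2 and Plod3, and the collagen chaperone Serpinh1 (Hsp47). Every probe set whose only gene symbol in the array's annotation was one of these 7 was taken. That gave 11 probe sets of the 45101 on the array: 2 each for P4ha1, Plod1, Plod2 and Serpinh1, and 1 each for P4ha2, P4hb and Plod3. The rule used symbols and no measured value, but the 7 genes had been chosen with earlier results of these data known. Counts of members called below therefore describe and do not test. Expression was measured in whole brain and in liver of male mice of 3 inbred strains (AKR/J, C57BL/6J, DBA/2J), 12 to 13 weeks old. In 6 of the 12 groups the mice had been kept awake for 6 h from light onset, and the other 6 groups were home-cage controls. By the sample titles all mice were killed at zeitgeber time (ZT) 6, that is, 6 h after light onset. Each of the 12 groups of tissue, strain and condition was measured on 3 arrays, each with RNA pooled from 3 mice, 36 arrays in all, and the pools are the replicates. The sample labels name no transgene and no drug. Sleep loss, strain and tissue are the variables they name, and the stated time also differs for some AKR/J controls. The AKR/J controls numbered 2 and 3, in brain and in liver, carry ZT 6 in the title and ZT 0 in the source name. Member calls that were lost without these 4 arrays are given with the value without them.

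Collagen chains are hydroxylated on proline and lysine before they wind into a triple helix. Collagen prolyl 4-hydroxylase is made of catalytic alpha subunits (P4ha1 or P4ha2) and of P4hb, a protein disulfide isomerase that keeps the alpha subunits soluble and is also a general folding enzyme. The hydroxyproline it forms gives the helix its heat stability, and the hydroxylysine formed by the Plod enzymes carries sugars and cross-links. These hydroxylases need iron, oxygen, 2-oxoglutarate and ascorbate, and P4ha1, P4ha2, Plod1 and Plod2 are known targets of the hypoxia-inducible factor. Serpinh1 binds the finished triple helix in the endoplasmic reticulum and is known as a heat shock gene. Most collagen of the liver comes from stellate cells and fibroblasts, and that of the brain from meningeal, vascular and perivascular cells.

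The tissues matched their labels: the neuronal gene Snap25 had a mean log2 value of 12.77 in brain and 2.63 in liver, and the hepatocyte gene Alb had 14.66 in liver and 3.89 in brain. Values are log2 array signals that the authors summarised with RMA, so a difference of 1 is a 2-fold change. The lowest value on any array was 2.12 and the array medians were 4.73 to 4.86 in brain and 4.05 to 4.13 in liver, so levels were not compared between the tissues, nor between probe sets. Correlations between arrays of a tissue were 0.978 or higher. In all, 6 arrays stood apart. The sleep-deprived brain arrays C57BL/6J 1, AKR/J 3 and DBA/2J 2 had the narrowest spread of values, with SDs of 1.90 to 1.96 against 1.97 to 2.05 on the other brain arrays. The control arrays C57BL/6J 2 and DBA/2J 3 in brain and DBA/2J 1 in liver had the largest difference between 3′ and 5′ beta-actin probe sets of their tissue, a sign of RNA quality, at 1.13, 0.98 and 2.16. In bulk tissue, fewer cells of a type and less RNA per cell cannot be told apart, and this holds for every result below.

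The promoter sequences of P4ha1 and Serpinh1, which rose in both tissues, and of P4hb, which did not pass the test in either, are shown because hypoxia, heat shock and endoplasmic reticulum stress each act through short DNA motifs. They are the 250 bases before the RefSeq transcript start in the mouse build GRCm38.p6, 5′ to 3′ on the gene's strand, with every match to a searched motif in capitals. P4ha1 lies on the plus strand at chr10:59323046-59323295, Serpinh1 on the minus strand at chr7:99353240-99353489, and P4hb on the minus strand at chr11:120573254-120573503.
P4ha1: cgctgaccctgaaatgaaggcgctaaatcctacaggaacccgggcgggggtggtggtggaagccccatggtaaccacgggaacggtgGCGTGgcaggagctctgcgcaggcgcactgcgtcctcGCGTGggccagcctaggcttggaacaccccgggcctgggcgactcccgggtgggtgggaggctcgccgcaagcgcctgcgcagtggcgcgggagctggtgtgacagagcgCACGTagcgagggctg
Serpinh1: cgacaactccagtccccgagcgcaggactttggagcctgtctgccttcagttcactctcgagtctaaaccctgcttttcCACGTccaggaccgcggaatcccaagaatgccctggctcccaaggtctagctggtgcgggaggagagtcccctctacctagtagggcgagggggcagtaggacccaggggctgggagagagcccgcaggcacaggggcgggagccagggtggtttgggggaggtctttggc
P4hb: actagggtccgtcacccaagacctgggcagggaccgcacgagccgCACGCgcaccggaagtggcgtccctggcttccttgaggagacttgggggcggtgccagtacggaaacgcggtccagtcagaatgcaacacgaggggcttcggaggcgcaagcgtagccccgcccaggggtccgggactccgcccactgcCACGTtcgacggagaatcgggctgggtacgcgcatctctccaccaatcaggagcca
Of the 7 genes, 6 had a promoter in the RefSeq table, and Plod2 was not matched. Both strands were searched for the hypoxia element cores ACGTG and GCGTG, for paired heat shock units GAANNTTC and TTCNNGAA, and for the 3-unit heat shock element, which is GAANNTTC followed after 2 bases by GAA and so contains the first pair. They were also searched for the endoplasmic reticulum stress element (CCAAT and CCACG with 9 bases between them) and stress element II (ATTGG and CCACG with 1 base between them). P4ha1 had 1 ACGTG on the minus strand, starting 16 bases before the transcript start, and 2 GCGTG at 163 and 126 bases. Serpinh1 had 1 ACGTG and no other match, and P4hb had 1 of each core. Among the others, P4ha2 had 1 ACGTG, 2 GCGTG and 1 TTCNNGAA, Plod3 had 1 ACGTG and 3 GCGTG, and Plod1 had 1 GCGTG. No 3-unit heat shock element and no endoplasmic reticulum stress element was matched in the 6 windows. Over 32851 promoter windows of this length, 16.6% held ACGTG, 28.2% GCGTG, 6.69% GAANNTTC, 7.17% TTCNNGAA, 0.466% the 3-unit element, 0.113% the stress element and 0.0304% stress element II. A match describes the letters of the window and does not show a bound site.

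P4ha1, the main catalytic subunit of collagen prolyl 4-hydroxylase, rose in brain after sleep deprivation, by 1.88-fold on 1 probe set and 2.11-fold on the other. On 1452094_at, the brain controls (arrays 1 to 3) read 6.48, 6.12 and 6.35 for C57BL/6J, 6.27, 6.11 and 6.19 for AKR/J and 6.28, 6.11 and 6.18 for DBA/2J. The sleep-deprived arrays read 6.74, 7.08 and 7.13, then 7.41, 7.37 and 6.88, and then 7.44, 6.92 and 7.35, in the same order of strains, which is kept throughout. All 9 sleep-deprived arrays lay above all 9 controls, which 0.164% of all 45037 probe sets tested did in brain. The mean change over the strains was 0.91 ± 0.09 (SE, n = 9 arrays per condition), with a limma adjusted p of 2.51e-05. On 1426519_at, the brain controls read 5.32, 4.39 and 5.01, then 5.21, 4.69 and 5.35, and then 5.29, 4.90 and 4.59. After sleep deprivation it read 5.73, 5.89 and 6.11, then 6.32, 6.40 and 5.74, and then 6.44, 5.43 and 6.41. Again no sleep-deprived array fell within the range of the controls. Its mean change was 1.08 ± 0.16 (SE), with a limma adjusted p of 0.00210.

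Ranked by the size of the rise, the P4ha1 probe sets were the 9th and 20th of the 45037 in brain. Within each strain, the lowest sleep-deprived brain value of P4ha1 on both probe sets came from the array of narrow spread (C57BL/6J 1, AKR/J 3, DBA/2J 2). The lowest C57BL/6J and DBA/2J control values on 1426519_at, 4.39 and 4.59, came from the arrays with the raised 3′ to 5′ beta-actin difference. Without these arrays the mean brain changes were 1.03 on 1452094_at and 1.15 on 1426519_at, with limma adjusted p-values of 6.21e-07 and 9.32e-05. Without all AKR/J arrays the change on 1426519_at was as large, 1.08, but its limma adjusted p was 0.0638, while 1452094_at still passed at 0.00483.

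In liver, P4ha1 also rose on both probe sets, by 1.70- and 1.73-fold. The liver controls of 1452094_at read 5.07, 4.98 and 5.38, then 5.27, 5.16 and 5.03, and then 5.68, 5.39 and 5.42. The sleep-deprived arrays read 5.99, 5.93 and 5.95, then 5.87, 5.70 and 6.38, and then 6.23, 6.47 and 5.73. The conditions did not overlap, though by a narrow gap, since the highest control was DBA/2J array 1 at 5.68 and the lowest sleep-deprived array was AKR/J array 2 at 5.70. In liver 0.206% of probe sets had all 9 sleep-deprived arrays above all 9 controls. Over the strains the change was 0.76 ± 0.10 (SE), with a limma adjusted p of 1.40e-04. On 1426519_at, which was dim in liver, the values were 2.94 to 3.60 in controls and 3.60 to 4.39 after sleep deprivation. They met at the boundary, where the DBA/2J sleep-deprived array 3 and the C57BL/6J control array 3 both read 3.60, but they did not overlap within any strain. On both P4ha1 probe sets the 3 sleep-deprived arrays of each strain lay above its 3 controls in both tissues, which in C57BL/6J, DBA/2J and AKR/J 4.15%, 3.82% and 5.50% of all probe sets did in brain and 6.95%, 7.89% and 7.13% in liver. Over the strains 1426519_at changed by 0.79 ± 0.10 (SE), with a limma adjusted p of 1.14e-04. The calls of the P4ha1 mean effect in liver held under every alternative that was run, and 1426519_at was not tested under the filter on low values.

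The order of the P4ha1 group means was alike on 1452094_at in both tissues: the 3 control groups came first and the 3 sleep-deprived groups after them. In brain the means ran from 6.19 for DBA/2J and for AKR/J controls and 6.32 for C57BL/6J controls to 6.98 (C57BL/6J), 7.22 (AKR/J) and 7.23 (DBA/2J) after sleep deprivation. In liver they ran from 5.14 (C57BL/6J), 5.15 (AKR/J) and 5.50 (DBA/2J) for controls to 5.95, 5.98 and 6.14 after sleep deprivation, for the same strains. Neighbours within a condition overlapped in their arrays, except that the liver DBA/2J controls lay just above the other controls (5.39 against 5.38). P4ha1 differed between no pair of control strains by the test in either tissue.

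P4ha2 encodes the second alpha subunit, which can replace P4ha1 in the enzyme. It rose in liver by less than P4ha1 and did not pass in brain. The liver controls read 4.79, 5.10 and 4.74, then 5.33, 5.26 and 5.23, and then 5.09, 4.45 and 4.55. After sleep deprivation the values were 5.19, 5.18 and 5.10, then 5.65, 5.86 and 5.94, and then 5.30, 4.999 and 5.01. The AKR/J conditions were apart, while in C57BL/6J the highest control and the lowest sleep-deprived array both read 5.10, and in DBA/2J control array 1 (5.09) lay inside the sleep-deprived range. That control array is the one with the raised beta-actin difference. The mean change in liver was 0.41 ± 0.08 (SE), 1.33-fold, with a limma adjusted p of 0.00628. It passed in all but 2 of 25 alternatives, and missed the limma threshold without all AKR/J arrays (0.34, adjusted p = 0.144) and without the AKR/J controls whose labels disagree on time (0.39, adjusted p = 0.0510).

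In brain, P4ha2 lay between 5.02 and 5.70 in controls and between 5.30 and 6.06 after sleep deprivation. The conditions overlapped in C57BL/6J and AKR/J and were apart in DBA/2J, with controls of 5.10, 5.02 and 5.30 against 5.72, 5.44 and 5.78. Over the strains P4ha2 differed by 0.29 (95% interval 0.10 to 0.49), with a limma adjusted p of 0.149. The lowest sleep-deprived value of each strain was again that of the narrow-spread array. Without the arrays that stood apart the change was 0.49 with an adjusted p of 1.18e-04, and without AKR/J sleep-deprived array 3 alone it was 0.36 with an adjusted p of 0.0314. That was the 1 of 18 fits leaving out a single brain array in which it passed. The fit without the arrays that stood apart left out control arrays as well. Whether P4ha2 was called in brain thus depended on which arrays were kept.

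P4hb, the shared beta subunit and disulfide isomerase, showed no change past the test in either tissue. Its brain values all lay between 8.53 and 8.88, with a mean difference of 0.04 (95% interval -0.08 to 0.17, limma adjusted p = 0.846). In liver it was among the brightest probe sets, at the 99.4th percentile, with all values between 11.76 and 12.34. The liver difference was -0.03 (95% interval -0.13 to 0.08, limma adjusted p = 0.860). In DBA/2J the sleep-deprived arrays read 11.76 to 11.81 and the controls 11.87 to 11.94, a difference of -0.12 that did not pass (limma adjusted p = 0.575). How many of all probe sets were apart in this direction was not counted. The upper bound of the P4hb change in each tissue was below the lower bound of every P4ha1 interval, the smallest of which was 0.55. The difference between genes was not tested.

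Of the lysyl hydroxylases, 1 probe set of 5 passed, in liver. Plod1, which hydroxylates lysines of the helical part of collagen, rose on 1416289_at in liver. There the controls read 7.31, 7.50 and 7.67, then 7.33, 7.46 and 7.42, and then 7.36, 7.45 and 7.26. The sleep-deprived arrays read 7.51, 7.60 and 7.82, then 7.85, 7.58 and 7.64, and then 7.62, 7.79 and 7.58. AKR/J and DBA/2J were each apart between conditions, and C57BL/6J overlapped. The mean change of 0.25 ± 0.06 (SE), 1.19-fold, had a limma adjusted p of 0.0309. This call was lost in 9 of 25 alternatives. In 7 of them a single array was left out (AKR/J control 1, AKR/J sleep-deprived 1, C57BL/6J control 1 or 2, C57BL/6J sleep-deprived 3, DBA/2J control 3 or DBA/2J sleep-deprived 2), with adjusted p-values of 0.0545 to 0.0708. The others left out all AKR/J arrays (0.190) or the AKR/J controls whose labels disagree on time (0.0739). In brain the same probe set differed by 0.21 (limma adjusted p = 0.235), and passed without the arrays that stood apart (0.26, adjusted p = 0.0327) and without AKR/J sleep-deprived array 3 alone (0.28, adjusted p = 0.0201).

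The second Plod1 probe set, 1445893_at, was dimmer and pointed the other way in liver. It differed by -0.21 there (95% interval -0.35 to -0.06, limma adjusted p = 0.135) and by 0.13 in brain (adjusted p = 0.680), neither past the test. In C57BL/6J liver it read 4.47, 4.43 and 4.80 in controls and 4.27, 3.98 and 4.03 after sleep deprivation. The pair of probe sets thus disagreed on Plod1 in liver, and the gene's direction there rests on which of them is read. Without AKR/J control array 3, the difference on 1445893_at passed (-0.25, limma adjusted p = 0.0436).

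Plod2, which hydroxylates lysines of the telopeptides at the chain ends, was dim in liver, at the 24.3rd and 16th percentiles of all probe sets, and nearer the middle in brain, at the 42.8th and 46.3rd. In brain its probe sets ranged from 3.92 to 4.84 and from 4.07 to 4.82, and differed by -0.09 (limma adjusted p = 0.752) and -0.02 (0.967). In liver 1416686_at ranged from 3.03 to 3.51 and differed by -0.02 (0.909), and 1416687_at ranged from 2.75 to 3.39 and differed by 0.21 (0.0681). The second of these differed between conditions mostly in AKR/J, where controls of 2.91, 2.82 and 2.75 stood against 3.35, 3.30 and 3.15. In liver these levels were close to the lowest value on any array, where a change is hard to measure. The second probe set passed in liver under median centring (0.23, limma adjusted p = 0.0351) and with an intensity trend and robust moderation (0.21, adjusted p = 0.0499). It also passed there without DBA/2J sleep-deprived array 2 (0.23, limma adjusted p = 0.0467). Plod3, which also transfers sugars to hydroxylysine, was moderately bright, at 7.38 to 7.88 in brain and 7.40 to 7.96 in liver. Its differences were 0.03 in brain (95% interval -0.09 to 0.15, limma adjusted p = 0.911) and 0.16 in liver (0.02 to 0.30, adjusted p = 0.256).

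**Figure D1:**
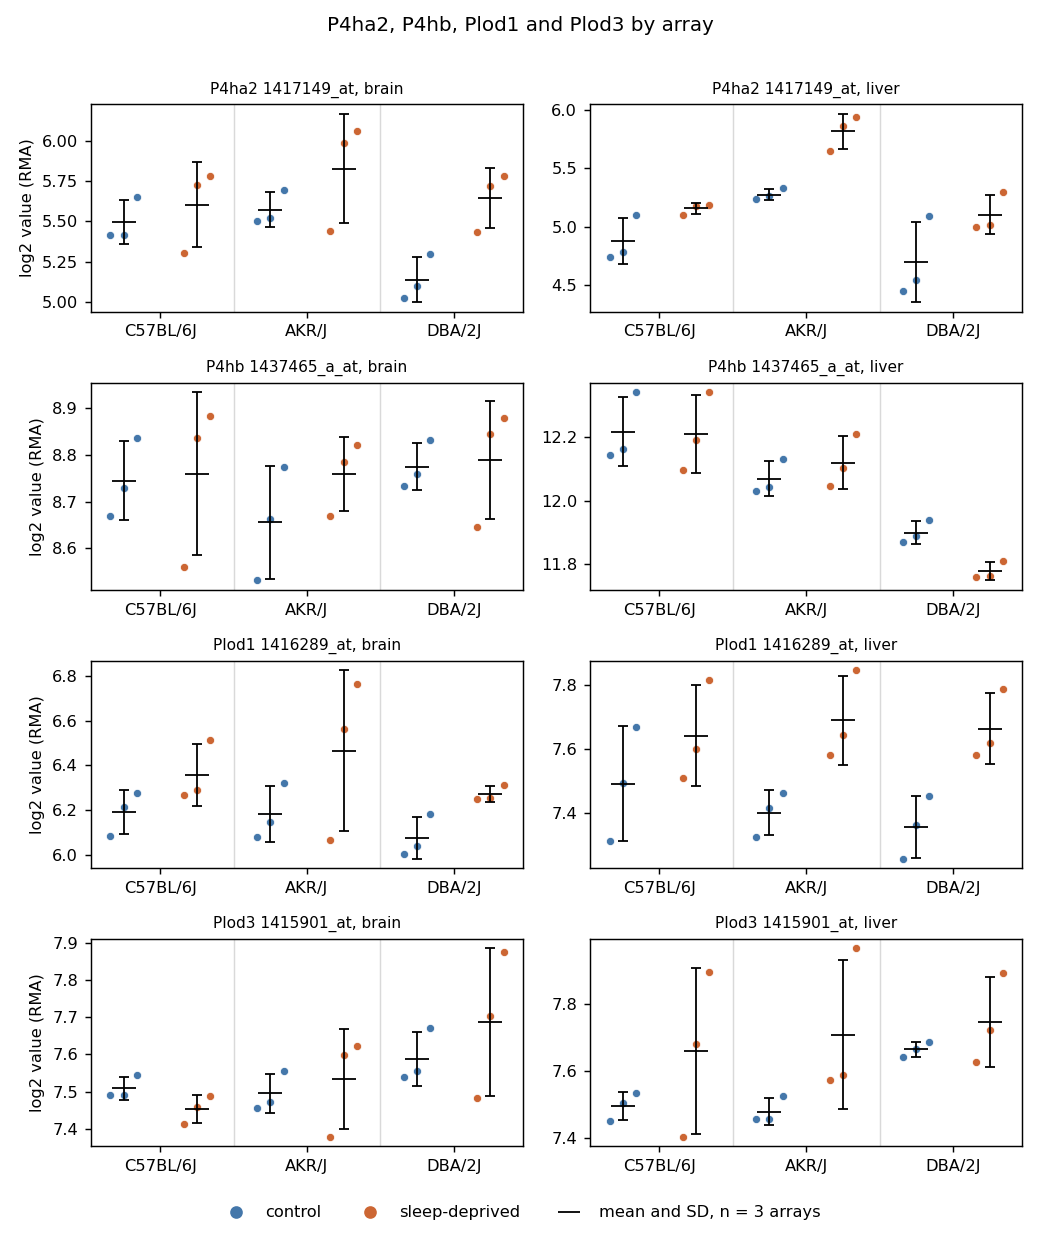
Log2 values (RMA) of P4ha2, P4hb, Plod1 (1416289_at) and Plod3 on every array, by strain, in brain (left) and liver (right), with points for arrays (blue control, orange sleep-deprived) ordered by value and bars for the mean and SD of 3 arrays. P4ha2 in AKR/J liver is apart between conditions (5.23 to 5.33 against 5.65 to 5.94), while P4hb in brain stays within 8.53 to 8.88 in all groups; each panel has its own scale.

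Serpinh1, the collagen chaperone, rose in both tissues on both probe sets. In liver its rise on 1450843_a_at was the largest of the 11 probe sets, and that on 1456733_x_at was smaller than those of P4ha1. In liver, 1450843_a_at read 5.60, 5.52 and 5.43 for C57BL/6J controls, 4.58, 4.86 and 4.71 for AKR/J controls and 4.58, 4.65 and 4.76 for DBA/2J controls. After sleep deprivation it read 6.19, 6.46 and 6.17, then 6.06, 5.89 and 5.96, and then 5.74, 6.35 and 5.78. Every sleep-deprived array lay above every control, and the C57BL/6J controls lay above the controls of the other strains. Averaged over strains the change was 1.10 ± 0.08 (SE), a 2.15-fold rise with a limma adjusted p of 6.39e-08. On 1456733_x_at the liver controls were 5.85 to 6.74 and the sleep-deprived arrays 6.58 to 7.20. These ranges overlapped. Within strains, the C57BL/6J values, 6.74, 6.44 and 6.61 against 6.75, 6.93 and 6.66, overlapped, while AKR/J and DBA/2J were each apart. Averaged over strains the change was 0.60 ± 0.07 (SE), 1.52-fold, with a limma adjusted p of 4.92e-05. The suffix _x_at marks a probe set with probes that can also match other transcripts.

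In brain, Serpinh1 on 1450843_a_at read 6.37, 6.28 and 6.32 for C57BL/6J controls, 5.93, 5.66 and 5.81 for AKR/J controls and 5.76, 5.71 and 5.81 for DBA/2J controls. After sleep deprivation it read 6.31, 6.53 and 6.64, then 6.97, 6.96 and 6.46, and then 6.35, 6.42 and 6.44. AKR/J and DBA/2J were each apart between conditions, and C57BL/6J overlapped, whose controls were already near the sleep-deprived level of DBA/2J. The mean change was 0.60 ± 0.07 (SE), 1.52-fold, with a limma adjusted p of 1.61e-04. On 1456733_x_at the brain controls read 6.92, 6.89 and 6.73, then 6.54, 6.71 and 6.45, and then 6.38, 6.47 and 6.22. The sleep-deprived arrays read 7.18, 7.02 and 6.98, then 7.31, 7.36 and 7.19, and then 6.88, 7.27 and 6.94. The conditions were apart within each strain. The mean change was 0.54 ± 0.06 (SE), 1.45-fold, with a limma adjusted p of 2.21e-04. Without all AKR/J arrays the brain changes were 0.41 (limma adjusted p = 0.0321) and 0.44 (adjusted p = 0.0637), so that the second no longer passed.

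**Figure D2:**
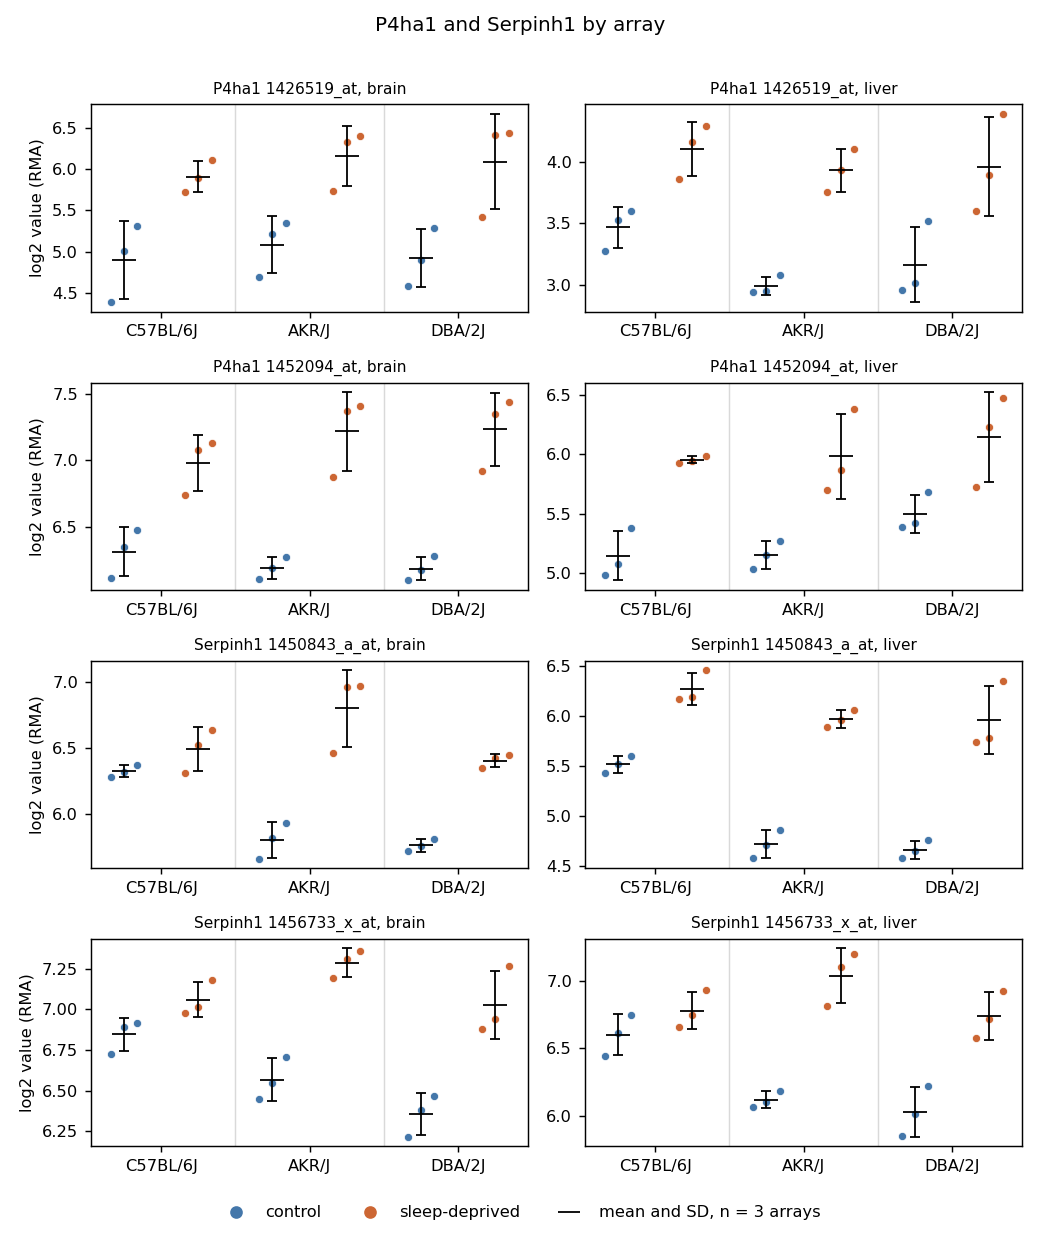
Log2 values (RMA) of the P4ha1 and Serpinh1 probe sets on every array, by strain, in brain (left) and liver (right), with points for arrays (blue control, orange sleep-deprived) ordered by value and bars for the mean and SD of 3 arrays. P4ha1 1452094_at is apart between conditions in both tissues (brain 6.11 to 6.48 against 6.74 to 7.44), and the C57BL/6J controls of Serpinh1 1450843_a_at in liver (5.43 to 5.60) stand above those of AKR/J and DBA/2J (4.58 to 4.86).

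Over the 11 probe sets, the mean effect of sleep deprivation passed limma's test for 4 in brain, both of P4ha1 and both of Serpinh1, all higher, where 0.688% of all probe sets tested were called higher and 1.73% in either direction. In liver it passed for 6, both of P4ha1 and of Serpinh1, that of P4ha2 and 1416289_at of Plod1, all higher, where 2.40% of all probe sets were called higher and 3.60% in either direction. At an unadjusted p under 0.05 the counts were 6 and 9 of the 11, against 5459 and 6992 of all 45037 probe sets. By rise in liver, Serpinh1 ranked 26th and 163rd, P4ha1 71st and 78th and P4ha2 493rd of the 45037, and in brain Serpinh1 ranked 57th and 81st.

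**Figure D3:**
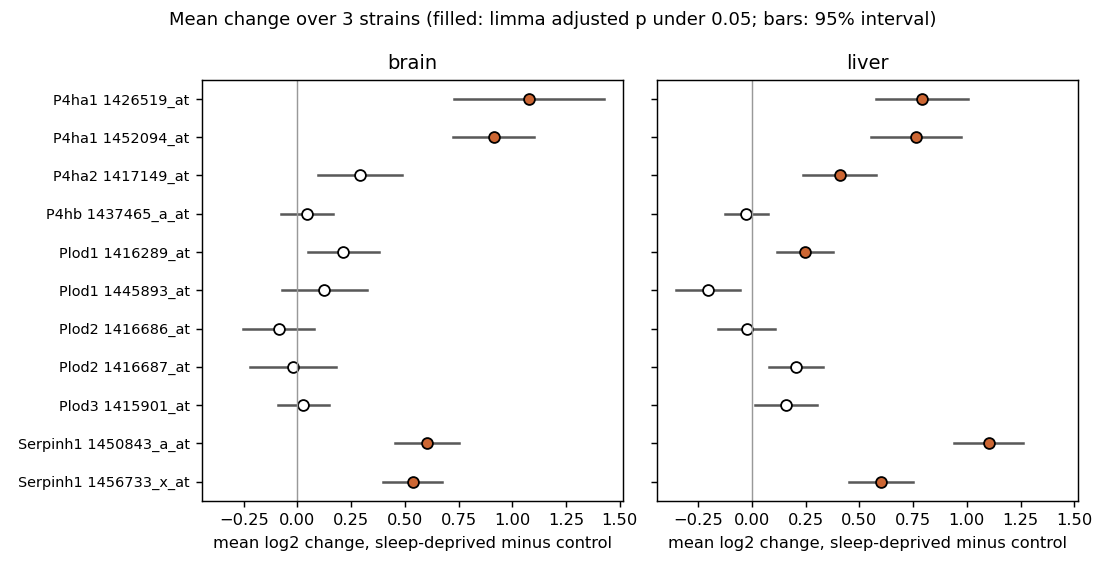
Mean log2 change after sleep deprivation over the 3 strains for the 11 probe sets in brain and liver, with 95% intervals from limma. P4ha1 and Serpinh1 lie between 0.54 and 1.10 in both tissues, and P4hb, Plod2 and Plod3 lie between -0.09 and 0.21.

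The strains were also fitted one by one. In brain, 3 member probe sets passed for AKR/J, where 0.300% of all probe sets were called and 0.193% called higher. For DBA/2J 2 passed, where 0.104% were called and 0.0711% higher, and for C57BL/6J none, where 0.0377% were called and 0.0200% higher. All 5 were higher. At an unadjusted p under 0.05 limma gave 4, 6 and 2 of the 11, in that order of strains. Over all 45037 probe sets it gave 3001, 3068 and 2020. In AKR/J brain, P4ha1 rose by 1.03 ± 0.16 (SE, n = 3 arrays per condition; 1452094_at, limma adjusted p = 0.00546) and Serpinh1 by 1.00 ± 0.12 (1450843_a_at, 6.56e-04) and 0.72 ± 0.11 (1456733_x_at, 0.00590). In DBA/2J brain, P4ha1 rose by 1.05 ± 0.16 (1452094_at, limma adjusted p = 0.00750) and Serpinh1 by 0.67 ± 0.11 (1456733_x_at, 0.0201). P4ha1 on 1426519_at did not pass in AKR/J (1.07, limma adjusted p = 0.218) or DBA/2J (1.16, 0.196). Neither did Serpinh1 on 1450843_a_at in DBA/2J (0.64, 0.0576). In C57BL/6J brain, P4ha1 differed by 0.67 (limma adjusted p = 0.343) and 1.00 (0.652), and Serpinh1 by 0.17 and 0.21. Without the arrays that stood apart, the P4ha1 change in C57BL/6J brain was 0.69 and passed (1452094_at, limma adjusted p = 0.0144), and the members called were 6 for AKR/J, 4 for DBA/2J and 1 for C57BL/6J. Without the AKR/J controls whose labels disagree on time, which leaves 1 AKR/J control assumed to vary like the other groups, no member was called in AKR/J brain, with P4ha1 at 0.94 (limma adjusted p = 0.535) and Serpinh1 at 0.87 (0.217) and 0.74 (0.313).

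Single brain arrays also decided strain calls. In DBA/2J, P4ha1 on 1452094_at missed the threshold without control array 2, sleep-deprived array 1 or sleep-deprived array 3 (limma adjusted p = 0.0611 to 0.0662). Serpinh1 on 1456733_x_at missed it there without control array 1 or 3 or sleep-deprived array 2 or 3 (0.0621 to 0.157). In AKR/J, P4ha1 on 1452094_at missed it without sleep-deprived array 1 (0.0545), and Serpinh1 on 1456733_x_at without control array 3 (0.0584). The summed level of 6 pituitary genes moved with sleep deprivation in AKR/J brain, at 7.71 to 7.87 (log2) in controls and 10.26 to 11.80 in sleep-deprived pools, against 7.47 to 13.54 in the other brain groups. None of the 6 passed the test of the mean effect, and their part in the AKR/J results was not tested.

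In liver, 4 member probe sets passed for AKR/J, where 0.711% of all probe sets were called and 0.451% called higher. For DBA/2J 3 passed, where 0.628% were called and 0.457% higher, and for C57BL/6J 2, where 0.615% were called and 0.524% higher. All 9 were higher. Serpinh1 on 1450843_a_at passed in every strain, by 1.30 ± 0.13 for DBA/2J (SE, n = 3 per condition, limma adjusted p = 4.17e-05), 1.25 ± 0.13 for AKR/J (5.29e-05) and 0.76 ± 0.13 for C57BL/6J (0.00832). On 1456733_x_at it rose for AKR/J by 0.91 (6.62e-04) and for DBA/2J by 0.71 (0.0105), and differed by 0.18 for C57BL/6J (0.828). The DBA/2J call on this probe set was lost without sleep-deprived array 1 or 2 (0.0518 and 0.0603). P4ha1 rose in AKR/J by 0.94 (1426519_at, 0.0127) and 0.83 (1452094_at, 0.0275), in C57BL/6J by 0.81 (1452094_at, 0.0361) and in DBA/2J by 0.80 (1426519_at, 0.0452). These P4ha1 strain calls were close to the threshold. The other P4ha1 probe set did not pass in C57BL/6J (1426519_at, 0.64, limma adjusted p = 0.150) or in DBA/2J (1452094_at, 0.65, 0.107). Of the 18 fits that each left out 1 liver array, 4 lost the AKR/J call on 1426519_at and 5 that on 1452094_at, 5 lost the C57BL/6J call and 12 lost the DBA/2J call, with adjusted p-values of 0.0545 to 0.190. For AKR/J these arrays were controls 1 and 3 and sleep-deprived 2 and 3 of that strain on 1426519_at, and controls 1, 2 and 3 and sleep-deprived 1 and 3 on 1452094_at. For C57BL/6J they were its controls 1 and 2 and all its sleep-deprived arrays. For DBA/2J they were its controls 1 and 2 and sleep-deprived 1 and 2, all controls of AKR/J and of C57BL/6J, AKR/J sleep-deprived 2 and C57BL/6J sleep-deprived 1. Without the AKR/J controls whose labels disagree on time, Serpinh1 on 1450843_a_at was the 1 member probe set called in AKR/J liver. There P4ha1 differed by 0.99 (1426519_at, limma adjusted p = 0.256) and 0.71 (1452094_at, 0.519), and Serpinh1 on 1456733_x_at by 0.97 (0.0518). The P4ha1 calls of the other strains were then lost too, in C57BL/6J (0.0633) and in DBA/2J (0.0765).

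Whether the strains differed in their response was tested by an interaction term. In brain no probe set of the 45037 passed with limma (0.00% called, 1005 at an unadjusted p under 0.05), and in liver 15 did (0.0333%), none of them a member. Serpinh1 had unadjusted p-values of 6.45e-04 and 0.00906 in brain and 0.0178 and 0.00139 in liver, for 1450843_a_at and 1456733_x_at. After adjustment they were 1.0, 1.0, 0.645 and 0.384. Those in brain were the smallest among the members. In liver, Plod2 on 1416687_at had a lower limma adjusted p (0.640) than Serpinh1 on 1450843_a_at. At an unadjusted p under 0.05 the interaction gave 2 of the 11 in brain and 4 in liver, where 3077 of all 45037 probe sets did. The change of Serpinh1 in C57BL/6J was the smallest of the strains on both probe sets in both tissues. P4ha1 had unadjusted interaction p-values of 0.182 to 0.923. A strain difference in response was thus not shown for any member.

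**Figure D4:**
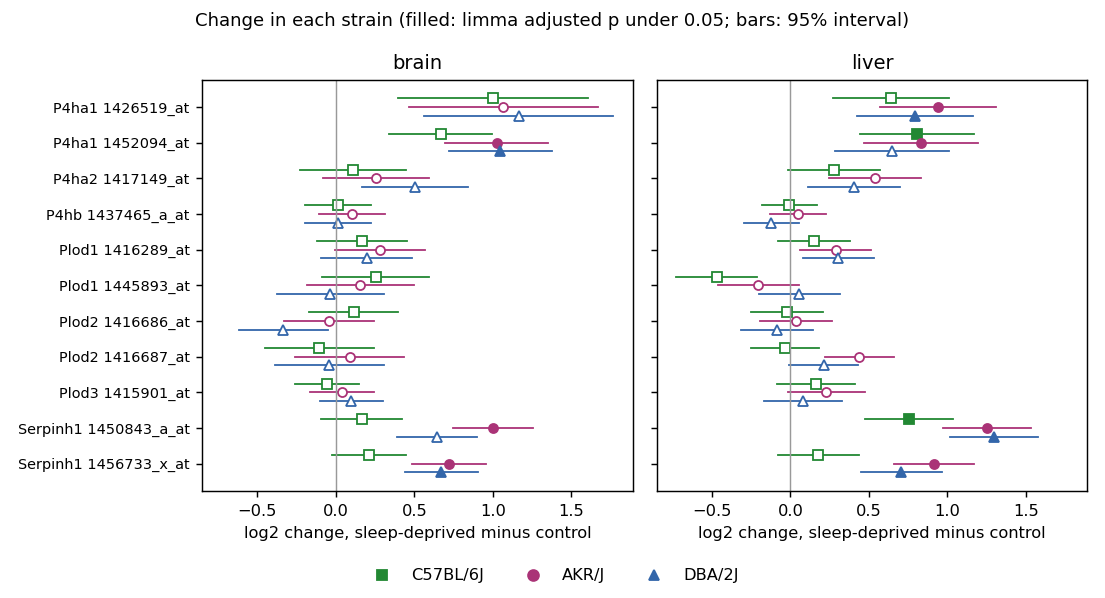
Log2 change after sleep deprivation within each strain for the 11 probe sets in brain (left) and liver (right), with 95% intervals from limma; filled symbols passed at an adjusted p under 0.05. Serpinh1 1450843_a_at in brain runs from 0.17 in C57BL/6J to 1.00 in AKR/J, and P4ha1 1452094_at from 0.67 to 1.05.

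Control mice of the 3 strains differed most in Serpinh1. The 3 comparisons share control arrays, so their values are not independent. In liver, Serpinh1 on 1450843_a_at was lower for AKR/J than for C57BL/6J controls, with a difference of -0.80 ± 0.13 (SE, n = 3 arrays per strain, limma adjusted p = 7.94e-04), and lower for DBA/2J, with -0.86 ± 0.13 (3.56e-04). On 1456733_x_at the differences were -0.48 (0.0262) and -0.57 (0.00709). In brain the differences from C57BL/6J on 1450843_a_at were -0.52 ± 0.12 for AKR/J (0.0302) and -0.56 ± 0.12 for DBA/2J (0.0183). On 1456733_x_at they were -0.28 (0.343) and -0.49 (0.0265). Serpinh1 did not pass between DBA/2J and AKR/J in either tissue, with differences of -0.04 and -0.21 in brain and -0.06 and -0.09 in liver. The C57BL/6J controls did not overlap those of AKR/J or of DBA/2J on 1450843_a_at in either tissue, as was so for 19.5% and 17.4% of all probe sets in brain and 23.4% and 20.5% in liver.

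The group means of Serpinh1 on 1450843_a_at ran in brain from 5.76 (DBA/2J) and 5.80 (AKR/J) over 6.32 (C57BL/6J) for controls to 6.40 (DBA/2J), 6.49 (C57BL/6J) and 6.80 (AKR/J) after sleep deprivation. The C57BL/6J controls (6.28 to 6.37) and the sleep-deprived DBA/2J arrays (6.35 to 6.44) overlapped. In liver the means ran from 4.66 (DBA/2J) and 4.72 (AKR/J) over 5.52 (C57BL/6J) for controls to 5.96 (DBA/2J), 5.97 (AKR/J) and 6.27 (C57BL/6J) after sleep deprivation, and the C57BL/6J controls overlapped no neighbour. The liver differences on 1450843_a_at held under every alternative, and that of AKR/J on 1456733_x_at was lost in 5 of 24, without AKR/J control 1 or 2, C57BL/6J control 1 or 3, or the AKR/J controls whose labels disagree on time (limma adjusted p = 0.0800 to 0.235). The brain difference of AKR/J was lost in 8 of 24 alternatives, among them without the controls whose labels disagree on time (-0.40, limma adjusted p = 0.783) and without AKR/J control 2 or 3 or any single C57BL/6J control (0.0763 to 0.165). The brain differences of DBA/2J were each lost without 4 single arrays, C57BL/6J control 1 and DBA/2J control 1 among them for both (0.0699 to 0.158).

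Of the other members, 2 differed between control strains, both in liver. P4ha2 was lower in DBA/2J (4.70 ± 0.34, SD, n = 3) than in AKR/J (5.28 ± 0.05), a difference of -0.58 ± 0.14 (SE) with a limma adjusted p of 0.0200, and their arrays did not overlap, as was so for 16.8% of all probe sets in each tissue. P4hb was lower in DBA/2J (11.90 ± 0.04) than in C57BL/6J (12.22 ± 0.11), a difference of -0.32 ± 0.08 with a limma adjusted p of 0.0309. Single arrays ended both calls: any AKR/J control or DBA/2J control 2 or 3 for P4ha2 (limma adjusted p = 0.0509 to 0.113; 0.211 without the AKR/J controls whose labels disagree on time), and C57BL/6J control 2 or 3 or any DBA/2J control for P4hb (0.0549 to 0.164). Between AKR/J and C57BL/6J controls, 1 member probe set was called in brain and 2 in liver, between DBA/2J and C57BL/6J 2 and 3, and between DBA/2J and AKR/J 0 and 1. All were lower. Over all probe sets the called shares were 2.00% and 5.09%, 1.90% and 5.57%, and 1.59% and 4.21%, and the shares called lower 1.08% and 2.07%, 1.09% and 2.23%, and 0.819% and 1.91%. For DBA/2J against AKR/J in brain, limma gave 2 of the 11 at an unadjusted p under 0.05, and 3406 of all 45037 probe sets. The lower p was that of Plod2 on 1416686_at, with controls of 4.63, 4.59 and 4.84 in DBA/2J against 4.10, 4.43 and 3.92 in AKR/J (0.54, limma adjusted p = 0.0585).

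The mean response was compared between the tissues in a fit of all 36 arrays. Serpinh1 on 1450843_a_at rose more in liver than in brain, by 0.50 ± 0.11 (SE, 95% interval 0.28 to 0.72, limma adjusted p = 0.0111), and was the 1 member called, where 1.38% of all probe sets were called and 1.02% called higher. Its second probe set did not follow: the difference on 1456733_x_at was 0.06 (limma adjusted p = 0.844). The first fell below the threshold without the arrays that stood apart (0.40, limma adjusted p = 0.0623). For P4ha1 the differences were -0.29 (95% interval -0.70 to 0.13, limma adjusted p = 0.615) and -0.15 (-0.44 to 0.14, 0.718), so that a brain response larger than that of liver by up to 0.70 or smaller by up to 0.14 lay within the intervals.

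In the reported fit, no list of other collagen pathway genes had more than 1 gene called in a tissue. Each gene of a list was read on its brightest probe set in the tissue. Of 21 measured genes for other collagen-modifying and exporting proteins, 1 rose in brain (4.76%) and none passed in liver, with median changes of -0.04 and 0.04, where all 18193 genes had medians of -0.01 and -0.02. Of all genes, 2.55% were called in brain (0.951% higher) and 4.88% in liver (2.97% higher). The one that rose was Pdia3, a disulfide isomerase of general glycoprotein folding (0.61 ± 0.09, SE, limma adjusted p = 0.00146), whose second probe set did not pass. The next largest brain changes, Fkbp7, P3h4 and Fkbp9, which serve collagen folding, were -0.25, -0.24 and -0.23 and did not pass. In liver the largest were P3h3 (0.23), Sec24d (0.23), Fkbp7 (0.19) and Pdia3 (0.18), none of which passed. P4ha3, a further alpha subunit, was dim, with means of 3.35 and 3.31 in control and sleep-deprived brain and 2.70 and 2.73 in liver.

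Among 33 collagen chain genes, none passed in brain, with a median of -0.01. In liver 1 rose (3.03%, against 2.97% of all genes), Col14a1, a fibril-associated collagen (0.40 ± 0.06, limma adjusted p = 4.12e-04). The fibrillar and basement membrane chains Col3a1, Col4a1 and Col1a2 had liver changes of 0.34, 0.28 and 0.23 that did not pass (limma adjusted p = 0.0534, 0.0872 and 0.171). In brain the largest chain changes were -0.19 for Col9a3 and Col3a1, -0.17 for Col6a1 and 0.17 for Col4a1. Of 12 genes for processing and cross-linking outside the cell, 1 rose in liver (8.33%), the matrix protein gene Sparc (0.31 ± 0.05, limma adjusted p = 0.00117), and none passed in brain, where the largest was Adamts3 at -0.23. Fn1 (-0.16), Bmp1 (0.14) and Pcolce2 (-0.13) followed in liver without passing. None of 9 other 2-oxoglutarate dioxygenase genes passed in either tissue, the largest changes being -0.15 for Phyh in brain and 0.15 for the oxygen sensor Egln1 in liver.

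Of 28 hypoxia target genes outside the members, 1 rose in brain (3.57%) and 3 in liver (10.7%), with medians of 0.03 and -0.0015. Of all genes, 0.951% rose in brain and 2.97% in liver. In brain it was Bhlhe40, a clock-linked repressor (0.30 ± 0.06, limma adjusted p = 0.0200), which no longer passed when the arrays were centred on their medians. Adm, Pfkfb3 and Slc2a1 differed there by 0.38, 0.29 and 0.19 and did not pass. In liver Pfkfb3, which promotes glycolysis, rose by 1.29 ± 0.15 (2.81e-05), Ddit4, an inhibitor of mTOR signalling, by 1.05 ± 0.15 (3.64e-04), and Epas1, the gene of a hypoxia-inducible factor, by 0.37 ± 0.07 (0.00456). Read on the probe set of smallest p, which favours calls in any list, the counts were 2 in brain and 7 in liver. The share of all genes called by that reading was not computed, so the shares above do not apply to it.

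Among 24 genes of endoplasmic reticulum chaperones and the unfolded protein response, 14 rose and none fell in brain (58.3% higher against 0.951% of all genes, median 0.33), among them the chaperone Hspa5 by 1.07, Creld2 by 0.96, Sdf2l1 by 0.95 and Manf by 0.91. In liver 7 rose and 1 fell (29.2% higher against 2.97% of all genes, median 0.19). Creld2 rose there by 1.09, Herpud1 by 0.49 and Hspa5 by 0.38, Syvn1 differed by 0.45 without passing, and Atf4 fell by 0.27. Of 20 heat shock genes, 16 rose in brain (80.0%, median 0.34) and 14 in liver (70.0%, median 0.63), and none fell. Hspa1b, an inducible HSP70, rose by 1.43 in brain and, on another probe set, 1.65 in liver, the small heat shock protein Hspb1 by 0.95 and 1.17, Chordc1 by 0.70 and 0.99, and Hsph1 by 0.55 and 1.88. P4hb, Serpinh1 and the hydroxylases were kept out of these lists. Both chaperone lists were drawn up with earlier results of these data known, so their counts describe and do not test.

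**Figure D5:**
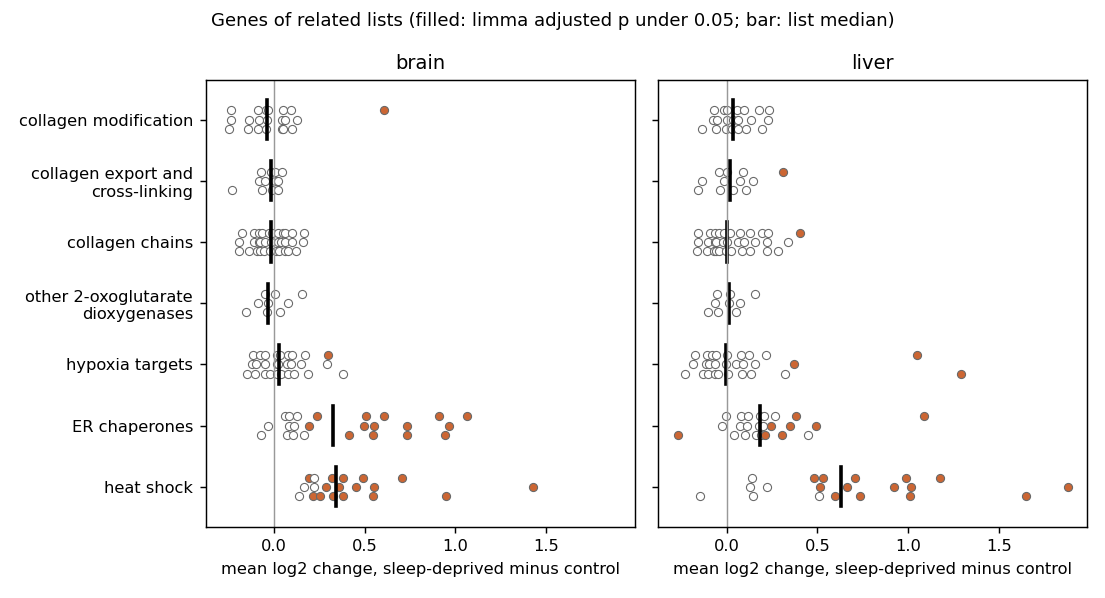
Mean log2 change after sleep deprivation of every gene of the 7 pathway lists in brain and liver, 1 point per gene, with filled points for genes that passed and a line for each list's median. The heat shock list lies highest, with medians of 0.34 in brain and 0.63 in liver, while the medians of the collagen lists are within 0.04 of 0.

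Likeness to P4ha1 in brain was measured across arrays. Over the 18 brain arrays, after each strain's mean was subtracted, the genes with the highest Pearson r to P4ha1 (1452094_at) among all genes were Hsph1 (0.984), Chordc1 (0.977), Hspa1b (0.977), Slc5a3 (0.969) and Manf (0.967). Slc5a3 encodes a myo-inositol transporter, and the others are heat shock or endoplasmic reticulum stress genes. The 2 conditions, the array spread and the libraries are shared by all points, so these values are a description. Each of the 5 also rose in both tissues by the mean effect, by 0.55 to 1.43 in brain and 0.35 to 1.95 in liver on the same probe sets. Among the members, the probe sets of P4ha1 had r = 0.947 with each other, P4ha1 1452094_at had 0.912 with Serpinh1 1450843_a_at, and P4ha1 1452094_at had 0.784 with P4ha2, 0.492 with P4hb and 0.744 with Plod1 1416289_at.

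In brain, none of 9 fibroblast, 8 mural or 8 endothelial markers passed, and their summed levels were 10.01 to 10.43, 9.89 to 10.31 and 9.08 to 9.38 (log2) over all brain arrays. Within strains, the sleep-deprived arrays lay below the controls in the fibroblast sum for AKR/J (10.23 to 10.31 against 10.37 to 10.43) and in the mural and endothelial sums for C57BL/6J (9.89 to 10.12 against 10.17 to 10.24, and 9.08 to 9.27 against 9.30 to 9.34). Their part in the brain results was not tested. In liver, 3 of 8 endothelial markers rose (Flt1 by 0.45, Pecam1 by 0.42, Tek by 0.36), as did 1 of 8 mural (Tagln, 0.39), 1 of 9 fibroblast (Ogn, 0.30) and 1 of 8 stellate cell markers (Ecm1, 0.30). Of all genes, 2.55% were called in brain (0.951% higher) and 4.88% in liver (2.97% higher). The summed stellate level was 11.10 to 11.46 in liver controls and 11.24 to 11.81 after sleep deprivation, and the fibroblast level 11.39 to 11.56 and 11.37 to 11.76. Within strains, the stellate sums of sleep-deprived arrays lay above those of controls in C57BL/6J (11.55 to 11.63 against 11.27 to 11.46) and in DBA/2J (11.54 to 11.81 against 11.46). The fibroblast sums were apart the same way in both strains (11.57 to 11.63 against 11.39 to 11.48, and 11.56 to 11.76 against 11.43 to 11.53). In AKR/J these sums overlapped, the endothelial sum was higher after sleep deprivation (8.91 to 9.08 against 8.60 to 8.86) and the mural sum lower (13.22 to 13.30 against 13.35 to 13.41). The sums add signals on the linear scale, so the brightest genes weigh most. The liver mural sum was mainly Vtn (mean 13.26, at the 99.9th percentile of all probe sets, next Rgs5 at 7.87). It follows Vtn and says little of the other mural markers or of mural cells. The fibroblast sum was mainly Dcn (10.27), also a stellate marker here, and Slc6a13 (10.07), with Col3a1 next at 8.08. It likewise says little of the other fibroblast markers. The part of these markers in the liver results was not tested. Of the other markers, Gjb6 of astrocytes rose (0.31) and Opalin of oligodendrocytes fell by 0.95 in brain, and in liver Tat of hepatocytes rose (0.83) and Syt1 of the neuronal list fell by 0.58. No marker of choroid plexus, pituitary, cholangiocytes or Kupffer cells passed in either tissue.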

How the data were processed

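Whole-brain and liver RNA, pooled from 3 mice per array, was measured on 36 Affymetrix arrays of 45101 probe sets. The deposited values are log2 expression values that the authors made with RMA, per the submitters' processing notes (version not given in the sources used here). This method subtracts background, gives arrays processed together one distribution and summarises probes, which compresses changes of dim probe sets. No further normalisation was applied. Gene names came from the platform annotation and a RefSeq table: of the 45037 probe sets left after 64 controls, 34945 had 1 symbol (34741 matched by gene identifier), 932 several and 9160 none. Promoters came from RefSeq (GRCm38.p6). The files give no probe set positions that were used here.

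The 18 arrays of a tissue entered 1 model of 6 group means (limma 3.58.1, R 4.3.3), and all 36 arrays another for liver minus brain, with the arrays of the tissues treated as independent samples. Differences are sleep-deprived minus control, two-sided, with Benjamini-Hochberg adjustment over 45037 probe sets and a threshold of 0.05 (called). The script was tested on simulated data. Samples were grouped by their labels. Within a tissue, same-numbered arrays were little more alike than others. Over 45 same-numbered pairs per tissue the correlation of deviations had a median of 0.105 in brain (-0.558 to 0.609) and -0.004 in liver (-0.162 to 0.216). Over 90 pairs of unlike number the medians were 0.08 and -0.009. Whether brain and liver pools of the same number came from the same mice was not examined. The number of arrays limits the precision.

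The members and lists were chosen with earlier results of these data known. Named were every member probe set, up to 4 genes of largest change per list and tissue, list genes that passed where 5 or fewer did, marker genes that passed, and the 5 genes most like P4ha1. Alternatives were median centring, a filter on low values (highest group mean of at least 5), intensity trend with robust moderation, the replicate number as a block, leaving out AKR/J, the AKR/J controls with 2 stated times, the 6 arrays that stood apart or each array in turn, and, for lists, the probe set of smallest p.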

Additional observations from a re-analysis of the deposited data

Results flagged for a closer look

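The rise of Serpinh1 on probe set 1450843_a_at was larger in liver than in brain. The difference of the mean effects, liver minus brain, was 0.50 ± 0.11 on the log2 scale (SE, limma adjusted p = 0.0111), from changes of 1.10 in liver and 0.60 in brain. The second probe set of the gene, 1456733_x_at, differed by 0.06 between the tissues (limma adjusted p = 0.844), with changes of 0.60 and 0.54. Over 43 alternatives the difference on the first probe set ranged from 0.40 to 0.62, with adjusted p-values of 0.00671 to 0.0623, and it missed the threshold in 1 of them, without the arrays that stood apart.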

How the results depend on the processing

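No result that passed the threshold, in the reported fit or under an alternative, changed sign. Differences near 0 that did not pass changed sign under some alternatives, among them Plod3 in brain (to -0.03), Plod2 in brain on 1416687_at (to 0.09) and in liver on 1416686_at (to 0.0095), and Serpinh1 on 1456733_x_at for liver minus brain (to -0.0009). The mean effects of P4ha1 on 1452094_at and of Serpinh1 on 1450843_a_at passed in both tissues under all 25 alternatives each. For the counts of member probe sets or of probe sets called that moved, the cause was not tested.

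Under median centring, members called for AKR/J against C57BL/6J controls in brain were 0, probe sets called 78 for AKR/J brain and 499 for the brain mean effect, hypoxia genes higher in brain 0 and collagen chains higher in liver 2. The intensity trend with robust moderation gave 25 probe sets for the liver interaction. With the probe set of smallest p, hypoxia genes higher were 2 in brain and 7 in liver, with no share of all genes computed for that reading. The replicate numbers have no stated meaning, and the fit with the replicate block called 610 probe sets for the brain mean effect and 1578 for liver, with 4 and 6 members. Under the block, members called were 0 for AKR/J against C57BL/6J controls in brain and 1 for C57BL/6J liver, and probe sets called for C57BL/6J brain were 8. The P4ha1 calls in C57BL/6J liver (1452094_at, limma adjusted p = 0.0601) and DBA/2J liver (1426519_at, 0.0565) missed the threshold under the block.

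Without AKR/J, the counts were 2 members and 85 probe sets for the brain mean effect, 783 for the liver mean effect, 0 for the liver interaction and 202 for liver minus brain. Without the AKR/J controls with 2 stated times, the brain counts were 0 members and 259 probe sets (AKR/J against C57BL/6J controls), 271 (DBA/2J against AKR/J), 0 members and 7 (AKR/J effect), 10 (C57BL/6J effect) and 300 (mean effect). The liver counts were then 1 member and 702, 0 members and 726, 1 member and 58, 1 member for C57BL/6J, and 982 for the mean effect, with 301 for liver minus brain.

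Without the arrays that stood apart, the brain counts were 1665 (AKR/J against C57BL/6J controls), 1 member and 1283 (DBA/2J against AKR/J), 1352 (DBA/2J against C57BL/6J), 6 members and 603 (AKR/J effect), 1 and 27 (C57BL/6J), 4 and 174 (DBA/2J) and 1866 (mean effect), with 111 for the DBA/2J effect in liver and 0 members for liver minus brain.

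Leaving out 1 array at a time, probe sets called ranged in brain from 49 to 172 (AKR/J effect), 3 to 27 (C57BL/6J), 23 to 62 (DBA/2J), 479 to 807 (mean), 555 to 1084 (AKR/J against C57BL/6J controls), 594 to 1018 (DBA/2J against C57BL/6J), 510 to 874 (DBA/2J against AKR/J) and 0 to 4 (interaction). In liver they ranged, in the same order, from 149 to 393, 108 to 304, 71 to 459, 1209 to 1638, 1425 to 2687, 1749 to 2739, 1373 to 2006 and 9 to 25, and for liver minus brain from 472 to 646. Members called ranged in brain from 2 to 3, 0 to 0, 0 to 3, 4 to 6, 0 to 1, 0 to 2 and 0 to 1, and in liver from 2 to 5, 1 to 2, 1 to 4, 5 to 7, 1 to 3, 2 to 3 and 0 to 1, in that order without the interaction. In liver, dim probe sets (Plod2, P4ha1 on 1426519_at) limit what a small change can show.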
